A study of Rattus norvegicus with 4 samples.

Results

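Interferon-stimulated genes and nucleic acid sensors were examined in rat oligodendrocyte precursor cells (OPCs) that had been transfected with small interfering RNA (siRNA). The set holds 37 genes, named as sensors that double-stranded RNA can engage and as genes that interferon induces. It was chosen with earlier results of these data known. Of these, 35 had at least 1 probe on the array (43 probes), among 16568 genes with a named probe. In all, 23 of the 35 gave enough signal to be tested, against 11656 of the 16568 genes (65.7% and 70.4%).

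OPCs from the cortices of Sprague–Dawley rats at postnatal day 2 were kept for 3 days with the growth factors bFGF and PDGF, then moved to differentiating medium with thyroid hormone and transfected with 50 nM RNA by the lipid reagent Lipofectamine RNAiMAX. The siGPR17 group received a SMARTpool, a mixture of siRNAs, against the receptor gene Gpr17. The siNEG group received a non-targeting RNA pool at the same concentration and is the only control. Cells were lysed 48 h after transfection, at 2 days of maturation, and total RNA of 2 samples per group was hybridized to 1-colour Agilent arrays. The samples were described as independent, without saying which animals or cultures each came from, so p-values measure the spread between these samples. Both groups carried the reagent and RNA, and no untransfected sample was among the 4, so what transfection itself did to these genes could not be measured.

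Between 26997 and 28244 probes per array were well above background, the scanner software's call that a signal exceeds the local background beyond its error, and no non-control spot was saturated. The probe of Gpr17 gave normalized signals of 1107 and 1113 in siNEG and of 652.3 and 639.4 in siGPR17 OPCs, a log2 difference of -0.78 (SE 0.08, limma adjusted p = 0.209), in the direction of the labels. The 4 arrays lay on 1 slide in 1 scan, with siNEG in slide column 4 and siGPR17 in slide column 3, so column and treatment cannot be told apart. All 8 OPC markers with a probe and 7 of 9 mature oligodendrocyte markers were tested, with summed signals of 207924 to 255538 and of 300873 to 369850.

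Cells detect foreign or misplaced nucleic acid with receptors in the cytosol (the RNA helicases MDA5 and LGP2, encoded by Ifih1 and Dhx58, and the kinase PKR, encoded by Eif2ak2) and in endosomes (such as Tlr3). MDA5 signals through the mitochondrial adaptor MAVS to the transcription factors IRF3 and IRF7, which switch on type I interferon. Secreted interferon then acts through JAK kinases and a complex with STAT2 and IRF9 that binds the interferon-stimulated response element (ISRE), while interferon gamma acts at gamma-activated sites (GAS). The induced genes encode proteins that bind or degrade viral RNA, conjugate the ubiquitin-like protein ISG15, attract lymphocytes or process antigens, and long double-stranded RNA is a classical trigger of the response in glia.

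The response elements can be read directly in the promoters. In the 250 bases before the start of each gene (RefSeq sequence of the assembly GRCr8), the ISRE core, taken as GAAA and again GAAA with any 2 bases between them on either strand, was present in 17 of 30 members with a promoter (56.7%), against 3.29% of 27457 promoters. The GAS motif TTCNNNGAA, which reads the same on both strands, was present in 8 of 30 (26.7%), against 7.52% of all promoters. Matches of the ISRE core overlap each other in Oas1a and Bst2, and a GAS match overlaps an ISRE match in Bst2. Dhx58, Mx2, Ifit1, Ifit2, Ifitm1, Isg15 and Usp18 had no entry. The stretches below are shown 5′ to 3′ along the strand of the gene, with the match in capitals. Isg20, Cxcl10 and Irf1 are among the members with an unadjusted p under 0.05 in limma between the groups. Ifit3 and Rsad2 gave no signal above background, Ifi27 and Ifi44 were high on 1 siGPR17 array alone, and Tap1 differed by little between any of the arrays.
Isg20, ISRE core beginning 92 bases before the start (chr1:142239942-142240001, plus strand): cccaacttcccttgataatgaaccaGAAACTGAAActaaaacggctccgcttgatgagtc
Cxcl10, ISRE core beginning 243 bases before the start (chr14:15988816-15988857, plus strand): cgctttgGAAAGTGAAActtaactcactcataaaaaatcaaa
Irf1, GAS motif beginning 142 bases before the start (chr10:38417768-38417826, plus strand): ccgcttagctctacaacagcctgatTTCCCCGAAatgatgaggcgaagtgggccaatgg
Ifit3, ISRE core beginning 44 bases before the start (chr1:241527257-241527316, plus strand): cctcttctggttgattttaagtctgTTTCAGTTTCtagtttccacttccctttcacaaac
Rsad2, ISRE core beginning 147 bases before the start (chr6:48788233-48788292, minus strand): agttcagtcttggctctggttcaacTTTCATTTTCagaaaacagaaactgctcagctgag
Ifi27, ISRE core beginning 84 bases before the start (chr6:128355203-128355262, plus strand): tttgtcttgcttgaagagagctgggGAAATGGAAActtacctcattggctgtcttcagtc
Ifi44, ISRE core beginning 26 bases before the start (chr2:243303841-243303891, minus strand): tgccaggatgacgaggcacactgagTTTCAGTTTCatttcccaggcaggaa
Tap1, ISRE core beginning 121 bases before the start (chr20:4668630-4668689, minus strand): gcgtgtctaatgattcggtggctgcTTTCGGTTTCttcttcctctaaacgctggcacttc

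Set beside detection on these arrays, the ISRE core was present in 9 of the 19 tested members with a promoter (47.4%) and in 6 of the 9 members that were well above background on fewer than 2 arrays (66.7%). A match describes the letters of a promoter and does not show a bound factor.

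The first question was which members the transfected OPCs expressed at all. Of the 35 members with a probe, 9 were well above background on no array, namely Tlr3, Oasl, Ifit1, Ifit2, Ifit3, Rsad2, Ifitm3, Isg15 and Parp9. A further 3 reached it on 1 array only, Ifih1 and Gbp2 and the tetherin gene Bst2, all of them on a siNEG array. The share of members above background on no array, 25.7%, was near that of all genes, 25.6%. Of the 12 antiviral effectors, 6 were among the 9 and 5 were tested. The 3 Ifit genes, whose proteins bind viral RNA ends, gave signals of 3.39 to 11.45, and Oasl gave 4.07 to 6.73. Viperin, encoded by Rsad2, gave 3.594 and 16.5 in siNEG and 3.688 and 3.382 in siGPR17 OPCs, and its other probe stayed between 3.667 and 4.35. Isg15, the ubiquitin-like modifier, gave 16.1 and 13.78 in siNEG and 19.37 and 4.177 in siGPR17 OPCs. None of these signals exceeded background in either group, so the levels are bounds and no difference was read from them. Ifi44l and Xaf1 had no named probe.

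At the other end stood members that are part of the resting machinery or gave bright signals without any test of induction. The 5 highest mean signals in siNEG were those of the dynamin-like GTPase gene Mx2, then Irf3, Stat2, Psmb9 and Mavs. In siNEG, Mx2 lay at percentiles 98.8 and 98.6 of all probes, and Irf3 at 93.1 and 93.4. Tap1, the peptide transporter subunit, lay at 61.1 and 61.6, Parp14 at 55.9 and 56.0, and Cxcl10 at 41.6 and 42.4. Brightness depends on the probe as well as on the RNA, so these positions do not rank amounts. The probe sequences were not read here, and whether probes for close relatives such as Mx1 and Mx2, or the Oas1 genes, take up each other's RNA was not tested.

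**Figure D1:**
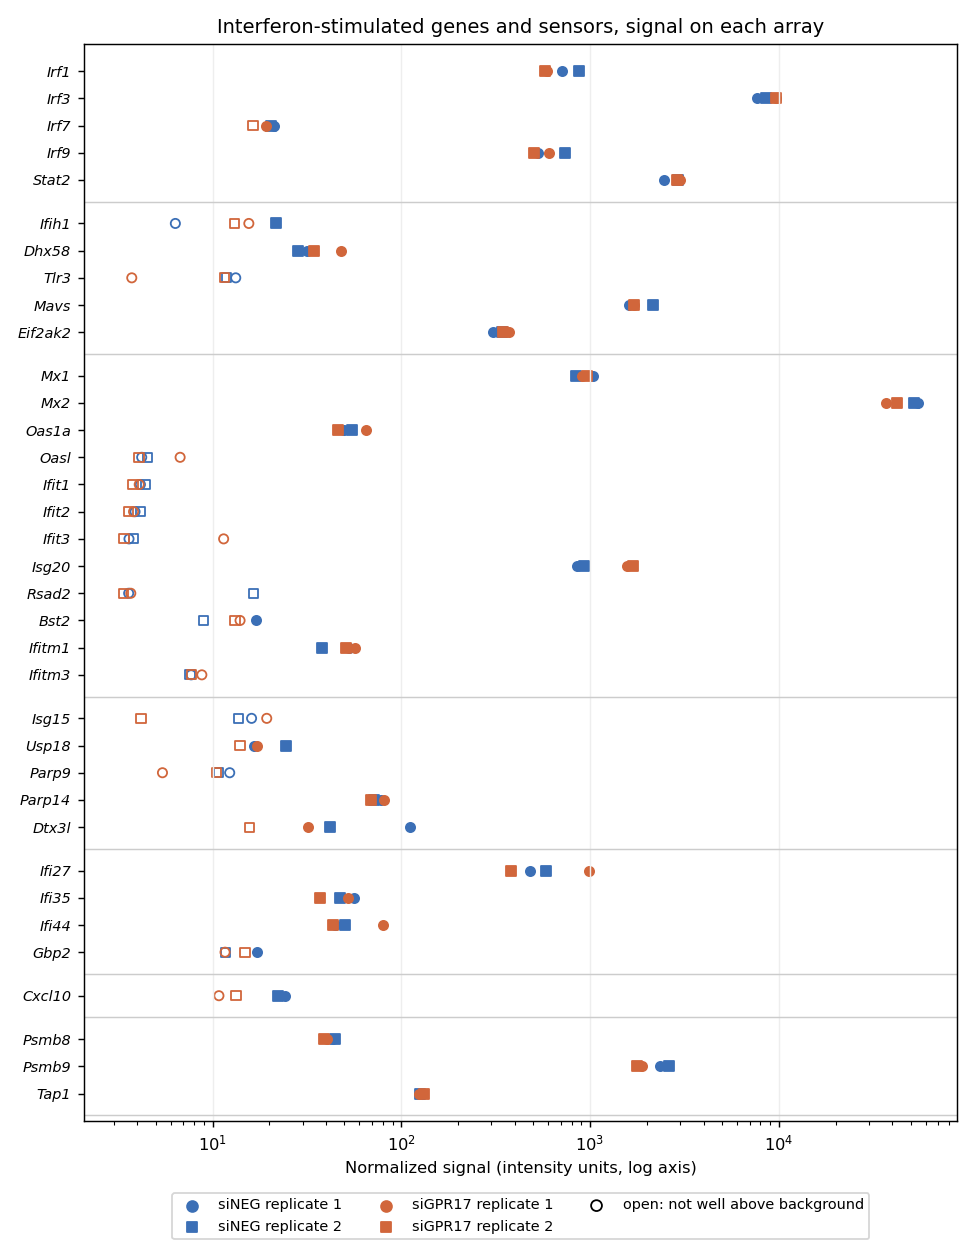
Normalized signal (log axis, intensity units) of the brightest probe of 35 interferon-stimulated genes and sensors on each of the 4 arrays, in the order signalling factors, sensors and adaptors, antiviral effectors, ubiquitin-like and ADP-ribosyl pathway, other induced proteins, chemokine and antigen processing, with grey lines between these groups. Filled symbols are well above background and open ones are not. Mx2 is far to the right, the Ifit genes, Oasl and Rsad2 are open symbols at the left, and Isg20 is the member whose siGPR17 symbols stand clearly to the right of its siNEG symbols.

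The second question was whether silencing of Gpr17 moved the set. No member passed the thresholds of the study's methods (fold change of 1.5 and adjusted p under 0.07), and neither did any other gene (0% of 11656 genes, and 0.00357% of 28016 probes, a single probe that no gene name was matched to). Member adjusted p-values ran from 0.209 to 0.999 in limma. In siGPR17 OPCs 11 members were higher and 12 lower, where 6059 and 5597 of 11656 genes were. The median log2 difference of the 23 members was -4e-04, against 0.01 for all genes tested. At an unadjusted p under 0.05 in limma, 1 member was higher (Isg20) and 4 were lower (Cxcl10, Irf1, Mx2 and Psmb9), which is 4.35% and 17.4% of the members where 7.43% and 8.73% of all genes were called. Cxcl10 is in this count through siNEG signals alone. With the filter on all 4 arrays 1 of 19 members was higher and 3 were lower, where 1953 of 10968 genes were in either direction. A fold change of 1.5 or more was reached upward by Isg20 and downward by Cxcl10 and Dtx3l (2.43% and 2.65% of all genes). The groups did not overlap for 11 members, with both siGPR17 values the higher in 4 and the lower in 7, while 12 members overlapped. Among all genes 53.4% did not overlap, 28.1% with siGPR17 higher and 25.3% with siGPR17 lower. An exact permutation test of a single gene could not go below a two-sided p of 0.3333 with 2 arrays against 2. Since the arrays measure RNA of whole cultures, fewer cells of a type and less RNA per cell cannot be told apart.

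**Figure D2:**
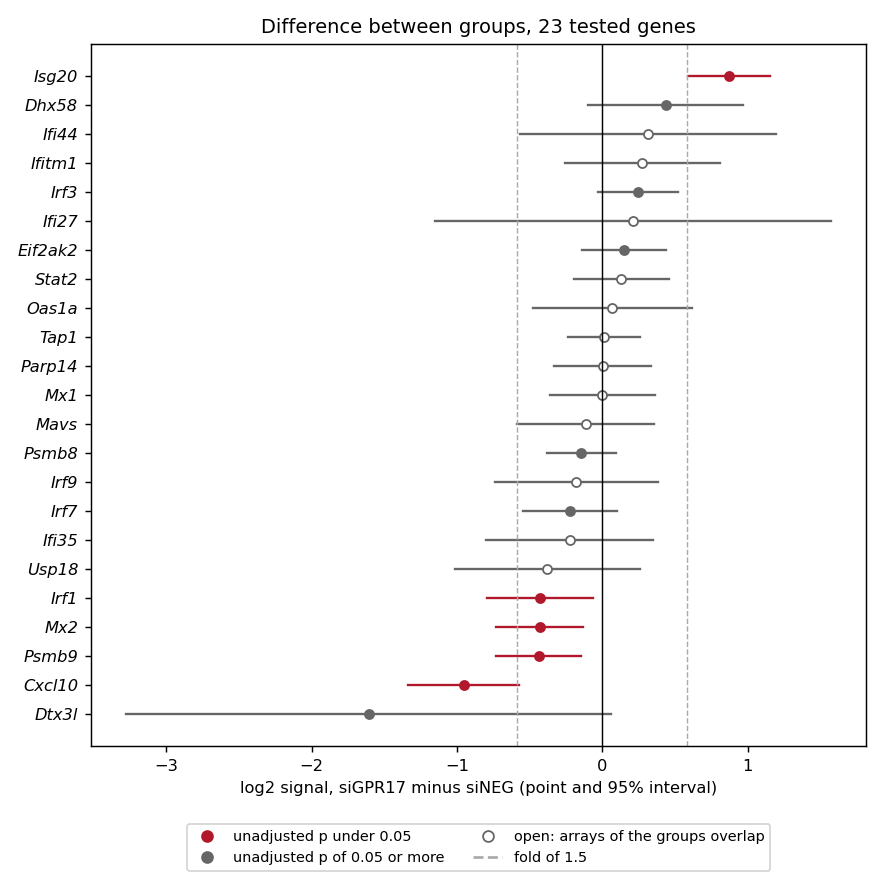
Log2 difference (siGPR17 minus siNEG) of the 23 tested members, with the 95% interval from limma. Red marks an unadjusted p under 0.05, open points mark members whose arrays overlap between the groups, and dashed lines mark a fold of 1.5. Isg20 stands at the top with 0.87, Cxcl10 (taken here at its measured siGPR17 signals, which are not well above background) and Dtx3l at the bottom, and most intervals cross 0.

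Among the signalling and transcription factors, all 5 members were tested. Irf1, a factor induced by interferon gamma whose promoter holds the GAS motif printed above, gave 710.1 and 872.6 in siNEG and 589.5 and 580.1 in siGPR17 OPCs. Both siGPR17 arrays were below both siNEG arrays, with a log2 difference of -0.43 (SE 0.13, limma unadjusted p = 0.0307, adjusted p = 0.265). Its unadjusted p stayed under 0.05 when either siNEG array was left out, and not when either siGPR17 array was, with log2 differences between -0.58 and -0.28, and it was not under 0.05 in the methods' t-test.

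Irf3, the constitutive factor that sensors activate by phosphorylation, gave 7693 and 8586 in siNEG and 9623 and 9635 in siGPR17 OPCs. Its siGPR17 arrays were higher, by 0.24 on the log2 scale (SE 0.10, limma adjusted p = 0.328), and its other probe differed by 0.18. Irf7, the inducible partner of IRF3, was near background at 21.11 and 20.43 in siNEG and 19.31 and 16.38 in siGPR17 OPCs, the last not well above background. The groups did not overlap, and the log2 difference was -0.22 (95% interval -0.55 to 0.10).

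Irf9, the DNA-binding subunit of the complex at the ISRE, gave 529.6 and 738.1 in siNEG and 603.2 and 506.3 in siGPR17 OPCs. Stat2 gave 2477 and 2923 in siNEG and 3013 and 2882 in siGPR17 OPCs. Both overlapped between groups, with log2 differences of -0.18 (95% interval -0.74 to 0.39) and 0.13 (95% interval -0.20 to 0.46), and the other Irf9 probe differed by -0.20. Of these factors, all but Irf7 were well above background on every array.

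Of the 5 sensors and adaptors, 3 were tested and none had an unadjusted p under 0.05. Dhx58, which encodes the helicase LGP2, gave 31.61 and 28.54 in siNEG and 48.07 and 34.37 in siGPR17 OPCs. It was higher on both siGPR17 arrays, with a log2 difference of 0.44 (95% interval -0.10 to 0.97). Mavs, the mitochondrial adaptor, gave 1600 and 2165 in siNEG and 1720 and 1714 in siGPR17 OPCs. The siGPR17 values fell between those of siNEG (log2 difference -0.12, 95% interval -0.59 to 0.36).

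Eif2ak2, the gene of the RNA-activated kinase PKR, gave 307.8 and 340.1 in siNEG and 372.1 and 345.7 in siGPR17 OPCs. Its siGPR17 arrays were slightly higher, by 0.15 on the log2 scale (95% interval -0.14 to 0.43), and its dimmer probe differed by -0.04 in the other direction. Ifih1, which encodes MDA5, gave 6.353 and 21.77 in siNEG and 15.57 and 13.12 in siGPR17 OPCs, with 1 siNEG array well above background. Tlr3, the endosomal receptor for double-stranded RNA, gave 13.27 and 11.84 in siNEG and 3.733 and 11.52 in siGPR17 OPCs, all at background. Neither of these receptors could be compared between the groups.

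Isg20 was the antiviral effector with the largest difference in the set upward. It encodes an exonuclease that degrades single-stranded RNA, and it gave 853 and 930.1 in siNEG and 1561 and 1699 in siGPR17 OPCs. The lower siGPR17 array lay well above the higher siNEG array. The siGPR17 mean of 1630.2 ± 97.8 (SD, n = 2) was 1.83-fold that of siNEG, 891.6 ± 54.5 (SD, n = 2), with a log2 difference of 0.87 (SE 0.10, 95% interval 0.59 to 1.15, limma unadjusted p = 0.00093, adjusted p = 0.209). Over 16 alternative settings the difference lay between 0.81 and 1.0 and the unadjusted p was under 0.05 in each. Its adjusted p passed the threshold with 2 of them, normexp background correction (0.0153) and limma with trend and robust options (0.0152), under which 112 and 184 genes in all passed.

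Mx2 encodes an interferon-induced GTPase that blocks viruses, and gave 54520 and 51930 in siNEG and 36970 and 42100 in siGPR17 OPCs. Both siGPR17 arrays were lower, with a log2 difference of -0.43 (SE 0.11, limma unadjusted p = 0.0155, adjusted p = 0.233). Its unadjusted p exceeded 0.05 without siNEG replicate 1, without siGPR17 replicate 1, and with scaling on the spike-in controls. Mx1, a GTPase gene of the same family, gave 1032 and 847.2 in siNEG and 909.2 and 961 in siGPR17 OPCs. The siGPR17 values of Mx1 lay between those of siNEG, with a log2 difference of -4e-04 (95% interval -0.36 to 0.36).

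The other tested effectors were Oas1a, which makes the 2-5A messenger that activates RNase L, and Ifitm1, a membrane protein that hinders virus entry. Their log2 differences were 0.07 and 0.28, and both overlapped between the groups.

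The ISG15 system and the PARP9 and DTX3L complex gave little to compare. Usp18, the protease that removes ISG15 and dampens the interferon receptor, gave 16.67 and 24.39 in siNEG and 17.22 and 13.99 in siGPR17 OPCs, near background. Parp14, an ADP-ribosyl transferase, had a log2 difference of 0.0018 (95% interval -0.33 to 0.34). Dtx3l, an E3 ubiquitin ligase, gave 110.7 and 42.02 in siNEG and 32.03 and 15.63 in siGPR17 OPCs, with the last signal not well above background. Both siGPR17 arrays were below both siNEG arrays, and yet the replicates of each group differed by more than 2-fold. The log2 difference of -1.61 (SE 0.61, 95% interval -3.28 to 0.06, limma unadjusted p = 0.0555) was the widest in the set, and was -0.41 with normexp background correction. The other Dtx3l probe was at background on all arrays (3.30 to 3.65).

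Cxcl10, the chemokine that draws T cells through the receptor CXCR3, was low in both groups. It gave 24.16 and 22.32 in siNEG, well above background, and 10.81 and 13.31 in siGPR17 OPCs, not well above background, so that it entered the test through siNEG alone. Each siGPR17 array was then counted at no less than the dimmest signal well above background of any probe on it (13.4 and 7.38). On that count Cxcl10 was 1.74-fold lower in siGPR17 OPCs. The signal of siGPR17 replicate 2 stayed at its measured value, so this fold is not a firm minimum. The limma test takes both siGPR17 signals at their measured values (adjusted p = 0.209). With normexp background correction the log2 difference was -0.18 and the unadjusted p no longer under 0.05.

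All 3 antigen processing members were tested. Psmb9, a catalytic subunit of the immunoproteasome, gave 2343 and 2635 in siNEG and 1895 and 1774 in siGPR17 OPCs. Its siGPR17 arrays were lower, with a log2 difference of -0.44 (SE 0.11, limma unadjusted p = 0.0141, adjusted p = 0.228). Leaving out either siGPR17 array took the unadjusted p above 0.05, with log2 differences over the 4 fits that left out 1 array of -0.52 to -0.35.

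Tap1, whose start lies 457 bases from that of Psmb9 on the opposite strand, gave 128.8 and 125.5 in siNEG and 124.2 and 131.9 in siGPR17 OPCs. The groups overlapped (log2 difference 0.01, 95% interval -0.24 to 0.26), and the other Tap1 probe differed by -0.01. Psmb8, the neighbouring immunoproteasome subunit gene, had a log2 difference of -0.14 (95% interval -0.38 to 0.09). The difference between Psmb9 and Tap1 was not tested.

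Of the remaining interferon-induced members, 3 were tested, and the arrays of the groups overlapped for each. Ifi27, a small mitochondrial and membrane protein gene, gave 479.8 and 586.8 in siNEG and 992 and 379.8 in siGPR17 OPCs. The array of siGPR17 replicate 1 was the highest of the 4 arrays and siGPR17 replicate 2 the lowest. The log2 difference of 0.21 (95% interval -1.15 to 1.57) was 0.90 without siGPR17 replicate 2 and -0.48 without siGPR17 replicate 1.

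Ifi44, a cytoplasmic induced protein gene, gave 44.39 and 50.4 in siNEG and 79.68 and 43.47 in siGPR17 OPCs. A separate Ifi44 probe gave 37.29 and 41.5 in siNEG and 64.09 and 35.65 in siGPR17 OPCs. The pair of probes had the same order, with siGPR17 replicate 1 high and the other arrays close together. The log2 difference of 0.32 was 0.75 without siGPR17 replicate 2 and -0.12 without siGPR17 replicate 1. Ifi35, an interferon-induced leucine zipper protein gene, gave 55.97 and 47.21 in siNEG and 52.22 and 37 in siGPR17 OPCs and overlapped between groups.

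Over the 23 tested members, siGPR17 replicate 1 was higher than siGPR17 replicate 2 in 17, against 6142 of 11656 of all genes. For siNEG, replicate 1 was higher in 10 of 23, against 4412 of 11656. The median size of the log2 difference between the siGPR17 replicates was 0.19 for the members and 0.08 for all genes, and between the siNEG replicates 0.17 and 0.15. Ifi27 and Dtx3l differed by 2-fold or more between the siGPR17 replicates (1% of all genes did so), and Dtx3l between the siNEG replicates (1.72%). Replicate 1 of each group lay in slide row 1 and replicate 2 in slide row 2, and the part of the slide row in these differences was not tested.

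Chosen after their values were seen, 2 further genes of antigen presentation were high on the array of siGPR17 replicate 1. Tap2, the partner of Tap1 in the peptide transporter, gave 74.1 and 70.03 in siNEG and 239.8 and 69.79 in siGPR17 OPCs. Tapbpl, a peptide editor of MHC class I, gave 14.88 and 16.91 in siNEG, not well above background, and 73.05 and 24.69 in siGPR17 OPCs. Tap2 on siGPR17 replicate 2 was close to the siNEG arrays, and its log2 difference of 0.84 had a 95% interval of -0.86 to 2.55. Both Tapbpl values in siGPR17 OPCs were above those of siNEG, 2.68-fold higher by the means of the log2 values of the measured signals (limma adjusted p = 0.315). The 95% interval of its log2 difference was -0.09 to 2.94, and this fold rests on siNEG signals not well above background. Tapbpl entered the test through siGPR17 signals alone, the group where it is higher.

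**Figure D3:**
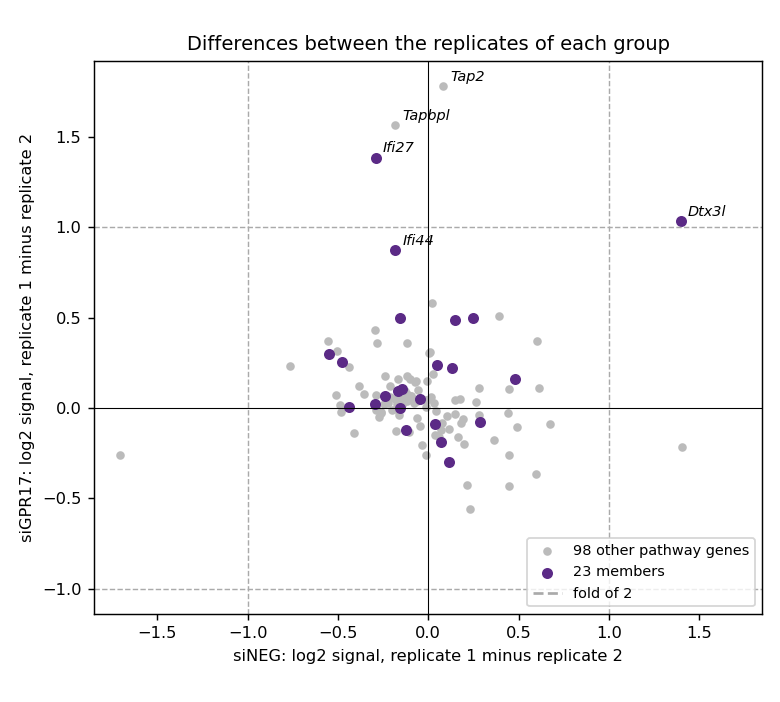
Log2 difference between replicate 1 and replicate 2 within siNEG (horizontal) and within siGPR17 (vertical) for the 23 tested members (purple) and 98 other tested interferon pathway genes (grey), with dashed lines at a fold of 2. Most points lie near 0, while Ifi27, Tap2 and Tapbpl lie above the upper line for siGPR17 alone and Dtx3l lies beyond the lines for both groups.

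To place the members in the wider pathway, 179 other genes were grouped in lists by role. Of these, 132 had a named probe and 98 were tested. None passed both thresholds, 8 were higher and 5 lower at an unadjusted p under 0.05 in limma (8.16% and 5.10%, near the 7.43% and 8.73% of all genes), and the median log2 difference was 0.01. The lists are described by their counts and medians, with no test of a list.

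Of 8 ligands with a probe, 3 were tested, namely Ifna4 (146.7 to 184.7 over the 4 arrays), Ifnk (98.82 to 133) and Ifna5 (10.94 to 28.94). Interferon beta, Ifnb1, gave 15.61 and 14.86 in siNEG and 19.14 and 16.29 in siGPR17 OPCs, well above background on 1 array. Interferon gamma, Ifng, was at background on all arrays (3.567 to 4.002). Of 9 tested genes of receptors and JAK-STAT signalling, none had an unadjusted p under 0.05, and log2 differences lay between -0.26 and 0.11. The type I receptor subunit gene Ifnar1 gave 208.4 and 173.3 in siNEG and 206.7 and 201.6 in siGPR17 OPCs. Ifnar1 was well above background on all 4 arrays, and its groups overlapped.

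Among 15 other tested sensors and adaptors, 5 were higher and 1 was lower at an unadjusted p under 0.05 (33.3% and 6.67%, where 7.43% and 8.73% of all genes were). The genes in these counts, named because the counts are small, were chosen after their values were seen. The kinase genes Tbk1 and Ikbke, which phosphorylate IRF3, were 1.23-fold and 1.27-fold higher. Their adaptor Tank was 1.26-fold higher, and another adaptor of the same kinases, Tbkbp1, was 1.32-fold lower. The DNA receptor gene Tlr9 was 1.45-fold higher and the RNA editing enzyme gene Adar 1.27-fold higher. Adjusted p-values of these 6 were 0.239 to 0.289 in limma. Sting1, the adaptor of cytosolic DNA sensing, gave 134.4 and 127.4 in siNEG and 125.2 and 132.5 in siGPR17 OPCs, and Tlr7 was at background on all arrays.

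Of 17 tested negative regulators, 13 were lower and 4 higher, where 5597 and 6059 of 11656 genes were, and the median was -0.16. At an unadjusted p under 0.05 in limma, 1 was lower (Samhd1, a nuclease and dNTPase gene, 1.22-fold), which is 5.88%, and none was higher. Of 29 further induced genes that were tested, 1 was higher at that level (Ifi30, a lysosomal thiol reductase gene, 1.27-fold) and 2 were lower. That is 3.45% and 6.9%, where 7.43% of all genes were higher and 8.73% lower at that level. The 2 lower genes were Oas2 and Oasl2, relatives of Oas1a. Oas2 gave 81.34 and 59.78 in siNEG and 38.3 and 39.04 in siGPR17 OPCs, a log2 difference of -0.85 (SE 0.18, limma adjusted p = 0.213). Oasl2 gave 47.72 and 31.6 in siNEG and 17.44 and 22.48 in siGPR17 OPCs, a log2 difference of -0.97 (SE 0.26, limma adjusted p = 0.238), with 1 siGPR17 array not well above background. The siGPR17 arrays of both were below those of siNEG, while Oas1a and Oas3 overlapped between the groups, and Oas1b, with signals of 35950 to 39860, differed by 0.08.

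Since both groups received siRNA, the small RNA machinery was included. Of 6 tested genes, Tarbp2, a partner of Dicer, was 1.26-fold higher and Ago1, an Argonaute, was 1.29-fold lower, at unadjusted p-values of 0.021 and 0.0246 in limma (adjusted p = 0.244 and 0.254). Each is 16.7% of that list, where 7.43% of all genes were higher and 8.73% lower at an unadjusted p under 0.05. Irf5 was the 1 of 4 other interferon regulatory factors (25%) with an unadjusted p under 0.05, at 1.24-fold higher. Among 15 tested genes of antigen processing and presentation, 12 were higher and 3 lower, where 6059 and 5597 of 11656 genes were. Tapbpl is in this count through siGPR17 signals alone. None of the 15 was under 0.05, and their median was 0.13.

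**Figure D4:**
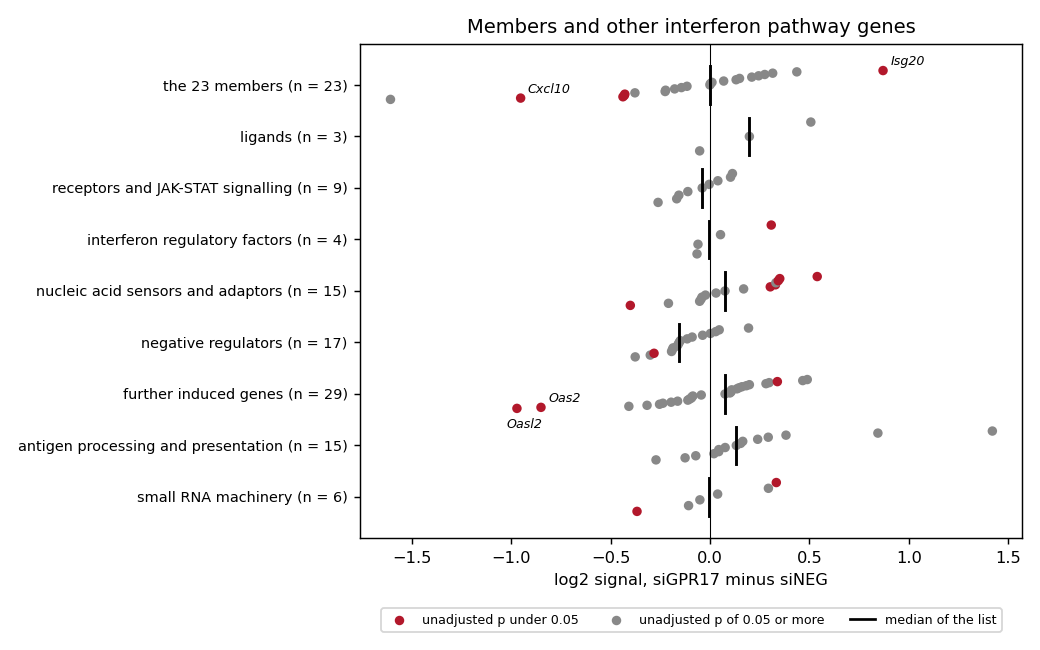
Log2 difference (siGPR17 minus siNEG) of each tested gene, for the 23 members and for 8 lists of other interferon pathway genes, with a black line at the median of each list. Red points have an unadjusted p under 0.05, and those that also reach a fold of 1.5 are named. Medians lie near 0, the named genes are Isg20 on the right and Cxcl10, Oas2 and Oasl2 on the left, and the 2 grey points at the far right of antigen processing are Tap2 and Tapbpl.

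Cells other than OPCs also express these genes, microglia above all, and their markers were read beside the members. Of 15 microglia and macrophage markers, 12 were tested, with 2 higher and 10 lower in siGPR17 OPCs. Among all 11656 genes tested, 6059 were higher and 5597 lower, to be read beside each count of markers here. Aif1 (1.48-fold) and P2ry12 (1.25-fold) were lower at an unadjusted p under 0.05 in limma (16.7%, where 8.73% of all genes were). Csf1r, Ptprc and Cd14 were well above background on no array, and Cx3cr1, P2ry12, Itgam and Laptm5 on all 4. Summed signals of the list were 8460 to 9246 in siNEG and 8941 to 8991 in siGPR17 OPCs. Of 9 tested astrocyte markers, 5 were lower, with Aqp4 at 2.55-fold and Gfap at 1.53-fold, and the summed signals were 116726 to 131317 in siNEG and 119170 to 120442 in siGPR17 OPCs. Aldoc carried most of that sum, and without it the sums were 9226 to 9717 in siNEG and 7842 to 7870 in siGPR17 OPCs, which did not overlap. Of 9 endothelial markers with a probe, 4 were tested and 3 of these were higher, with Kdr at a log2 difference of 0.68. Pecam1, Cldn5, Emcn and Tie1 were well above background on no array. Summed signals of the tested markers were 331.1 to 374.3 in siNEG and 512.6 to 513.5 in siGPR17 OPCs. Kdr carried most of these sums, with 202.2 and 232.5 in siNEG and 353.6 and 339.5 in siGPR17 OPCs. All 8 tested neuronal markers were lower. Gad2, at background on both siGPR17 arrays, is in this count through siNEG signals alone. All 8 OPC markers, Gpr17 included, were lower too. Of 7 tested oligodendrocyte markers, 3 were higher and 4 lower, with Mbp at a log2 difference of 0.32 and Mog at -0.67. The part of these cells in the differences of Isg20, Cxcl10, Irf1, Mx2 and Psmb9 was not tested.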

How the data were processed

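The values deposited are fluorescence intensity readings of 4 arrays, written by the authors with Agilent Feature Extraction 10.7.3.1 (per the labels), which subtracts background. From the processed signal of each spot, control spots and spots marked as outliers were dropped and log2 values were taken. The spots of a probe were averaged, and the 75th percentile over probes with a value on all 4 arrays was subtracted from each array. Signals are printed on the intensity scale after this scaling, with 75th percentiles of 564.9 to 624.1 before it. The log2 values and all differences were computed here from the deposited intensities. Probes were named by RefSeq accession (names from GRCr8, 21109 of 45598 non-control probes). Probes tested (28016) were those called well above background by the scanner software on 2 or more arrays, whatever the group, and a gene was taken by its brightest tested probe.

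Groups were compared with limma 3.58.1 in R 4.3.3, with Benjamini-Hochberg adjustment over all tested probes and the thresholds of the methods, namely an adjusted p under 0.07 together with a 1.5-fold difference. The methods name an unpaired two-tailed t-test for comparisons of 2 groups in general, with no mention of the arrays, and it was run as an alternative. The scripts were tested on simulated data. The members and lists were chosen with earlier results of these data known. Values on each array are given for members with an unadjusted p under 0.05, a fold change of 1.5 or more, detection in 1 group alone, or the 5 highest signals in siNEG, and for all signalling factors and sensors. A few others are given because their replicates differ, chosen after their values were seen. Other pathway genes and markers are named at an unadjusted p under 0.05 with a fold change of 1.5 or more, and others as the text states. Alternatives were another background correction, normalization, filter, floor, spread model, test and probe rule, the replicate number as a block, and leaving out each array. The number of arrays limits the precision.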

Additional observations from a re-analysis of the deposited data

How the results depend on the processing

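With 2 arrays per group, 16 alternative settings were run for each result, and 13 of the 23 tested members had the same sign in all of those that could be fitted. No gene passed both thresholds except with normexp background correction (112 genes, 60 higher and 52 lower) and with limma's trend and robust options (184 genes, 87 higher and 97 lower). In each of these, Isg20 was the 1 member called and Gpr17 passed as well (log2 difference -0.66 and -0.78). Isg20 had 0.83 and 0.87 there. With quantile normalization, normexp correction and trend and robust options, 2 members were higher at an unadjusted p under 0.05 (Irf3 beside Isg20). Irf1, Mx2 and Psmb9 were lower at that level in each of these settings. Cxcl10 was lower too with quantile normalization, Dtx3l with normexp correction, and both with trend and robust options. In either direction 2181, 2284 and 2427 of 11656 genes were under that level. Scaling on the spike-in controls moved the median of all genes to 0.14, with medians of 0.13 for the members and 0.14 for the other pathway genes, so that members stood where all genes did. There 4 members were higher and 3 lower at an unadjusted p under 0.05, where 2144 of 11656 genes were in either direction. With the methods' t-test, 1676 genes had an unadjusted p under 0.05 and none passed both thresholds after Benjamini-Hochberg adjustment, and among members Isg20 was higher and Cxcl10, Mx2 and Psmb9 lower at that level. Scaling on the percentile over spots was added after seeing the data.

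Replicate numbers are shared by the groups in the labels, and same-numbered arrays shared a slide row. Deviations of same-numbered arrays correlated at -0.07. With 2 arrays per group this value cannot show whether the samples were paired. With the replicate number as a block, 2 members were higher at an unadjusted p under 0.05 (Dhx58 beside Isg20) and 5 were lower. In either direction 1279 of 11656 genes were under that level, and no gene passed both thresholds. Fits that dropped 1 array took the lone array of a group to vary like the other group. Over these fits the member median ran from -0.17 (without siGPR17 replicate 1) to -0.0086 (without siNEG replicate 1). That of the other pathway genes ran from -0.046 (without siNEG replicate 1) to 0.025 (without siNEG replicate 2). The median of all genes ran from -0.0205 (without siNEG replicate 1) to 0.0355 (without siNEG replicate 2). It was 0.0073 without siGPR17 replicate 1, where the member median was lowest. Without a filter on dim probes the member median was -0.11 and that of all genes -0.0221.

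Members whose sign turned had small differences, or differed between replicates. With normexp correction Irf7 became 0.034 and Mx1 0.0014, and Mx1 became 0.0022 with scaling on the median. With spike-in scaling Mx1 became 0.13 and Mavs 0.015. With the percentile over spots Parp14 became -0.014 and Tap1 -0.0054, and with the mean over probes Tap1 became -1e-04. With each array left out in turn, log2 differences ran from -0.48 to 0.90 for Ifi27, -0.12 to 0.75 for Ifi44, -0.47 to 0.023 for Ifi35, -0.42 to 0.061 for Irf9, -0.33 to 0.10 for Mavs, -0.14 to 0.14 for Mx1, -0.18 to 0.32 for Oas1a, -0.11 to 0.11 for Parp14 and -0.034 to 0.053 for Tap1. The cause was not tested. Cxcl10, Dtx3l, Usp18 and Irf7 left the test under the filter on all 4 arrays.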
